A study of Mus musculus with 26 samples.

Results

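Solute carriers are the membrane proteins that move amino acids, sugars, lactate, ions, metals, vitamins, nucleosides and many other small molecules across the plasma membrane and the membranes of organelles. The genes described here are the lines of the deposited table named Slc, a family number, the letter a and a member number, leaving out Slc2a1, Slc10a2, Slc11a2, Slc12a2, Slc17a7, Slc1a3, Slc24a1 and Slc40a1. Each had to reach a mean of 20 RPM (reads scaled to the size of the library) in at least 1 of the 13 groups of cells. Of 329 lines so named, 8 were left out by name and 149 stayed under the floor, so 172 genes of 43 families were described, out of 25146 gene lines used. The 3 members closest above the floor were Slc41a2 at 21.7 ± 4.77 RPM (SD, n = 2) in B cells, Slc23a1 at 21.9 ± 1.88 RPM in E16.5 intestine and Slc10a7 at 21.95 ± 1.31 RPM in B cells. The 3 closest below it were Slc25a35 at 19.9 RPM, Slc35a5 at 19.8 RPM and Slc46a1 at 19.8 RPM.

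The study profiled cells sorted around the expression of BLIMP1 (gene Prdm1), a transcriptional repressor, by 3' RNA-seq of 26 mouse libraries, 2 per group, each amplified from 1 ng of RNA. Intestine, retina and spleen came from C57BL/6 mice homozygous for an EGFP knock-in that tags BLIMP1 at its N terminus, so no group of these lineages lacks the knock-in. Intestinal epithelium was sorted as reporter-positive EPCAM-positive cells at E16.5 and, by the labels, on EPCAM alone at P3 and P14, cells that the protocol calls BLIMP1-negative, so the age and the gate changed together between the embryonic and the postnatal groups. Retinal photoreceptor precursors were GFP+ at P0, GFP+ CD73- at P4, and CD73+ at P4, P6 and P10. B cells were B220+ splenocytes of mice aged 8 to 10 weeks, taken without culture. Purified B cells were also stimulated in culture with IL-4 (2 ng/mL) plus LPS (10 ng/mL) and after 3 days sorted into Blast (GFP- CD138-), prePB, or pre-plasmablasts (GFP+ CD138-), and PB, or plasmablasts (GFP+ CD138+). PGCLC are primordial germ cell-like cells made in culture from a C57BL/6 and 129 stem cell line carrying Blimp1-mVenus, stella-ECFP and Rosa26-rtTA, and were sorted for mVenus (BV+) on day 2 of induction. The induction medium held EGF at 50 ng/mL, LIF at 1000 U/mL, SCF at 100 ng/mL, and BMP4 as well as BMP8A at 500 ng/mL. The labels do not say that the 2 libraries of a group came from separate animals or cultures. Each p-value rests on how far libraries of the same group lay apart, shared over the groups of a lineage and adjusted toward other genes. That spread may be technical.

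Some background helps in reading the results. Absorptive cells of the gut pair carriers of the brush border, such as the sodium-glucose cotransporter Slc5a1, with others of the basolateral membrane to pass nutrients to the blood. Photoreceptors and their precursors depend on carriers for lactate, taurine, bicarbonate and glutamate, and dividing or antibody-secreting B cells draw heavily on amino acids, on mitochondrial exchange of metabolites and on metal ions handled by the secretory pathway. Carriers of the Slc25 family sit in the inner mitochondrial membrane, Slc30 and Slc39 proteins move zinc out of and into the cytosol, and Slc3 proteins are heavy chains that bring Slc7 light chains to the surface.

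The value of 1 read, 0.166 to 0.583 RPM, put the depth between 1716491 and 6040033 reads per library, so 20 RPM stood for 34.3 to 121 reads. Markers of each lineage were highest there: the summed level of 9 intestinal epithelium markers was 6540 to 9054 RPM in intestine and at most 54.2 RPM in retina and the B lineage (783 and 885 RPM in PGCLC, with Krt20 and Fabp1 at 0), 9 photoreceptor markers summed to 4541 to 27411 RPM in retina, 7 B cell markers to 10629 to 10959 RPM in B cells and 1936 to 4117 RPM after culture, and 7 germ cell-like markers to 1973 and 2280 RPM in PGCLC. Plasmablast markers were not confined to prePB and PB. The 6 listed summed to 2184 and 2003 RPM in B cells and 258 and 253 RPM in Blast. They summed to 3187 and 3356 RPM in prePB and 15818 and 15149 RPM in PB. Prdm1 itself read 2.31 to 10.5 RPM in B cells and Blast and 135 to 242 RPM in prePB and PB, and it read 46.2 and 71.3 RPM in the P3 libraries, whose cells the protocol calls BLIMP1-negative. Lines of 259 immunoglobulin genes lacked a value and were not used. The lines used summed to 954939 to 960060 RPM in Blast, 827448 to 864611 RPM in prePB and 650799 to 688942 RPM in PB, which bears on every comparison with these groups.

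Because the floor of 20 RPM used the group means, the levels in this and the next 2 paragraphs are a description with no test. RPM of 3' reads are not corrected for differences between genes, so levels are compared between groups for 1 gene, and ranks among genes are ranks of reads. E16.5 intestine held the most members at the floor, 102 of 172, followed by P6 retina with 96, P4 CD73+ retina with 95, P10 with 93, P3 intestine with 91, P14 with 89, P4 CD73- retina with 88 and P0 with 83. Fewer reached it in Blast (66), B cells (61), prePB (58), PGCLC (57) and PB (43). Over all gene lines, the groups at the floor ran from 7307 to 7672 genes in retina and from 6216 to 6599 in intestine, and stood at 6360 in PGCLC, 6308 in B cells, 5683 in Blast, 5233 in prePB and 4416 in PB. The summed reads of all members were highest in E16.5 intestine, 11781 and 11601 RPM, and lowest in PB, 4534 and 4110 RPM. In all 13 groups 18 members reached the floor, among them the ADP-ATP exchangers Slc25a4 and Slc25a5, the phosphate carrier Slc25a3, the glutamine carriers Slc38a1 and Slc38a2, the heavy chain Slc3a2, the copper importer Slc31a1 and the zinc carriers Slc30a5, Slc30a6, Slc30a7, Slc39a7 and Slc39a9. In contrast, 71 members reached it in 1 lineage alone: 31 in intestine, 27 in retina, 10 in the B lineage and 3 in PGCLC. Over all gene lines 11275 reached the floor in at least 1 group, but their split by lineage is not given here. The lineages also differ in their number of groups, so these counts do not set carriers apart from other genes.

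**Figure D1:**
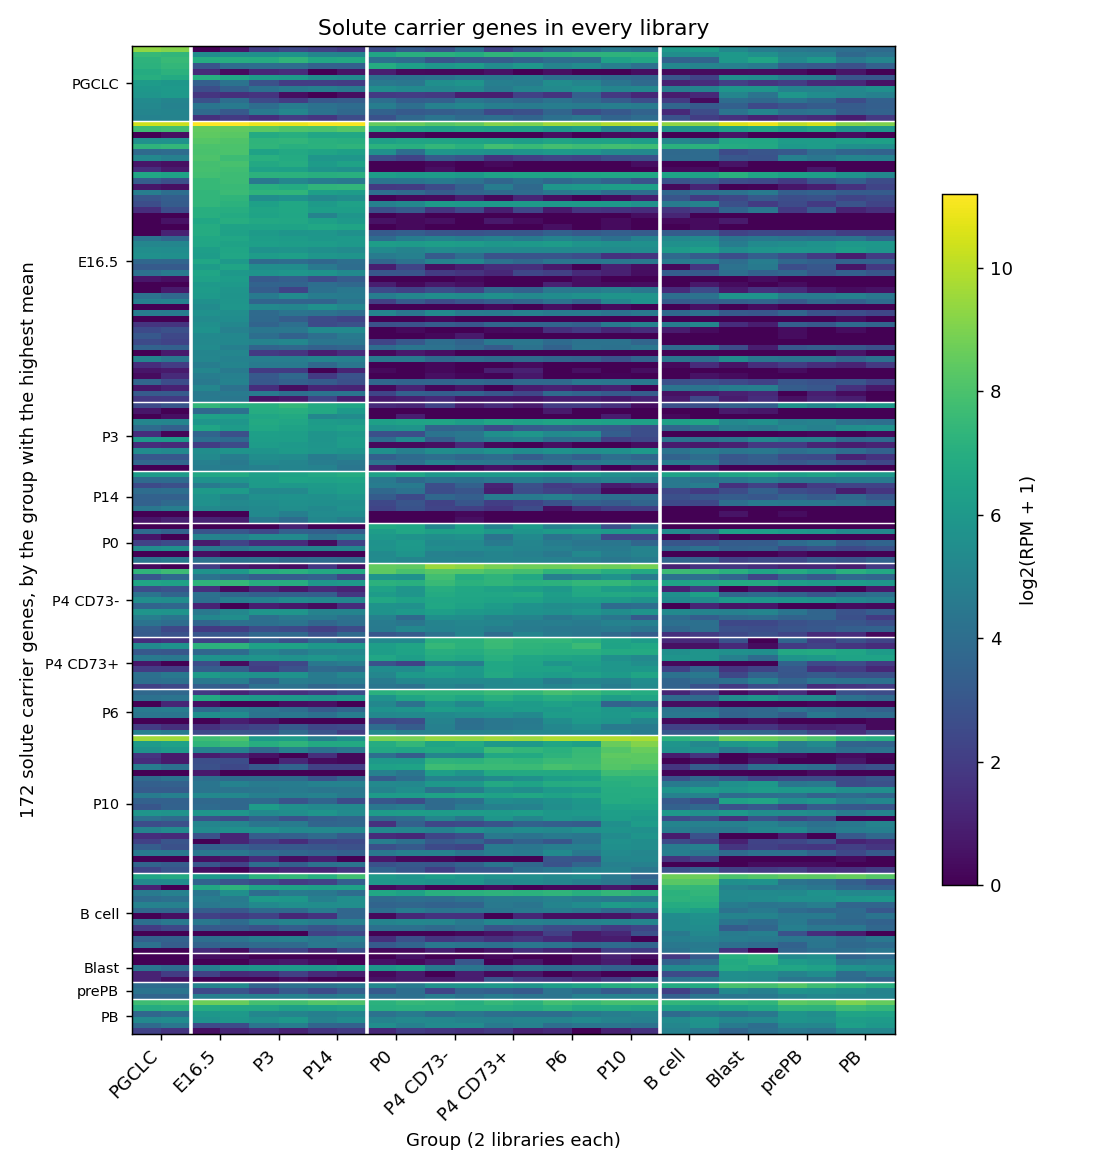
Level of the 172 solute carrier genes (rows, grouped by the group with the highest mean) in the 26 libraries (columns, 2 per group), as log2(RPM + 1). Many rows are bright in 1 lineage and dark in the others, and 49 members had their highest mean in E16.5 intestine, the largest block.

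The 31 genes at the floor in intestine alone were led, by highest group mean, by Slc7a9, Slc5a1, Slc44a4, Slc16a10 and Slc16a12. Slc7a9, the light chain of the cystine and dibasic amino acid carrier, stood at 344 and 324 RPM at E16.5 and 96.4 and 99.8 RPM at P14, and its mean outside the intestine was at most 0.298 RPM. Slc5a1 read 227 and 243 RPM at E16.5, 107 and 121 RPM at P3 and 68.7 and 85.9 RPM at P14. Slc6a19, the main neutral amino acid carrier of the brush border, read 130.04 and 113, then 88.3 and 97.3, then 31.1 and 56.5 RPM at these ages. The facilitative glucose carrier Slc2a2 (41.2 and 42.6 RPM at E16.5), the peptide carrier Slc15a1 (26.2 and 27.99 RPM) and the anion exchanger Slc26a3 belonged to the same set. The 27 genes at the floor in retina alone were led, in the same sense, by the glutamate carrier Slc1a2 (718 and 619 RPM in P4 CD73- cells), the potassium-chloride cotransporter Slc12a5, which lowers chloride in neurons (341 and 329.5 RPM at P10), the glutamine carrier Slc38a3, the organic ion family member Slc22a17 (231 and 189 RPM at P6), the glutamate carrier Slc1a7 (205 and 197 RPM at P10) and the glycine carrier Slc6a9. Slc1a7 was listed at 0 in P3, P14 and PB, and its highest library outside the retina held 0.769 RPM. The 10 of the B lineage were Slc2a6, Slc15a3, Slc7a5, Slc43a3, Slc25a45, Slc9a7, Slc29a3, Slc17a9, Slc14a1 and Slc41a2. The 3 of PGCLC were Slc38a4, a neutral and cationic amino acid carrier that is an imprinted gene (118 and 143 RPM, at most 1.51 RPM as a mean elsewhere), Slc1a4 and Slc27a3.

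Related carriers differed in the lineage of their highest level. The ADP-ATP exchanger Slc25a5 was highest in intestine, 2339 and 2307 RPM at E16.5, and lowest in P4 CD73- retina, 308 and 358 RPM. Its relative Slc25a4 had its highest group mean in P10 retina, with 936 and 875 RPM, and read 27.2 and 46.5 RPM in P14 intestine. Within the retina both rose from P4 CD73- cells to P10, Slc25a5 from a mean of 333 to 939 RPM and Slc25a4 from 654 to 905 RPM. Slc25a5 has processed copies in the genome, and the sources used here do not give the handling of reads that match several copies, so its level is uncertain in that respect. Among hexose carriers, Slc2a3, a high-affinity glucose carrier, reached 644 and 560.1 RPM in PGCLC, 63.1 and 76.3 RPM in B cells and no more than 0.618 RPM in E16.5 intestine, where Slc2a2 was read instead. Slc2a6, a glucose carrier of leukocytes, had a mean of at most 0.688 RPM outside the B lineage. The heavy chains split likewise: Slc3a1 reached 63.9 and 63.0 RPM in E16.5 intestine and was listed at 0 in PGCLC, whereas Slc3a2 was at the floor everywhere, from 127 RPM in a P4 CD73- library to 502 RPM in a PB library. In PGCLC the members with the most reads were Slc25a5, Slc25a4, Slc2a3, the mitochondrial carrier Slc25a39 (218 ± 8.38 RPM) and Slc3a2 (214 ± 7.84 RPM), and the lactate carrier Slc16a1 had its highest group mean there, 166 ± 23.8 RPM (SD, n = 2 in each).

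Differences between stages were tested within a lineage with limma on log2(RPM + 1) across all genes that had 5 RPM or more in 2 or more libraries. A gene was called when its Benjamini-Hochberg adjusted p was under 0.05 and its log2 fold change at least 1 in size, and fold changes are on the log2(RPM + 1) scale, which understates changes of low genes. Since the floor used the same levels, counts of members, whole or by class, are given with the count over members that reach 20 RPM in a group of another lineage, whose choice did not use the libraries compared (outside-floor members). A member at the floor within the tested lineage alone is given by its values and no p. In bulk samples, fewer cells of a type and less RNA per cell cannot be told apart. Comparisons within a lineage share groups, so their results are not independent of each other.

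In the B lineage, the carriers higher in Blast than in unstimulated B cells included Slc31a2, Slc7a3, Slc16a1, Slc19a1 and Slc19a2, and those lower included Slc28a2, Slc44a2 and Slc46a3. Between B cells and Blast, 23 of 123 members tested were higher in Blast and 29 lower. That is 42.3%, where 34.1% of all 9871 genes tested were called. Of the 113 members at the floor outside the lineage, 18 were higher and 27 lower, or 39.8%, where 30.7% of all genes so chosen were called. The direction of the balance depended on the scaling: with quantile normalization 29 members were higher and 20 lower, and outside-floor members gave 24 and 18 (20 and 20 with median-of-ratios scaling).

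Among amino acid carriers, Slc7a3, a carrier of arginine and lysine, read 0.809 and 1.45 RPM in B cells and 33.3 and 19.1 RPM in Blast (log2 fold change 3.64, SE 0.32, adjusted p = 6.3e-07). Slc1a4, an exchanger of alanine, serine and cysteine, rose from 2.83 and 0.241 RPM to 14.7 and 12.7 RPM (log2 fold change 2.75, SE 0.48, adjusted p = 0.00028). Slc7a5, the large neutral amino acid exchanger that pairs with Slc3a2, stood at 3.23 and 6.98 RPM and 39.1 and 28.6 RPM and belongs to the lineage-only set. Slc38a9, the lysosomal carrier that senses arginine for mTORC1, fell from 46.3 and 81.9 RPM to 11.9 and 14.2 RPM (log2 fold change -2.16, SE 0.32, adjusted p = 6.6e-05). A list of 14 genes of the amino acid response, which is no part of the carriers, gives a neighbouring measure: 10 of 13 tested rose and none fell, with a median log2 difference of 1.83 against -0.18 over all genes. Over the same step 12.3% of all genes rose and 21.8% fell. Asparagine synthetase, Asns, was among them, from 7.88 and 9.39 RPM to 168 and 97.1 RPM (log2 fold change 3.74, SE 0.24, adjusted p = 3.2e-08).

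Of the metal carriers, 6 of 22 tested rose and 5 fell (6 and 4 of 21 outside-floor members). Of all genes at the floor outside the lineage, 12.4% rose and 18.2% fell from B cells to Blast. Slc31a2, a low-affinity copper carrier, rose from 7.78 and 5.18 RPM to 86.4 and 98.8 RPM (log2 fold change 3.66, SE 0.24, adjusted p = 4.2e-08), and the 2 groups lay far apart. Slc39a8, a zinc and manganese importer, went from 0.202 and 2.41 RPM to 17.5 and 23.7 RPM (log2 fold change 3.40, SE 0.51, adjusted p = 7.8e-05). Slc25a37, mitoferrin, which brings iron into mitochondria, fell from 118 and 124 RPM to 24.6 and 19.4 RPM (log2 fold change -2.41, SE 0.23, adjusted p = 1.3e-06). Over the same libraries, 5 erythroid markers summed to 37.0 and 50.2 RPM in B cells and 2.92 and 0.867 RPM in Blast, all 3 of them that were tested fell, and their part in this fall was not tested. Of the 5 vitamin and haem carriers tested, all outside-floor members, 3 rose and 1 fell. The thiamine carrier Slc19a2 rose from 1.42 and 5.06 RPM to 18.5 and 32.7 RPM (log2 fold change 2.74, SE 0.41, adjusted p = 8e-05), and the reduced folate carrier Slc19a1 from 13.7 and 13.7 RPM to 41.4 and 54.0 RPM (log2 fold change 1.71, SE 0.24, adjusted p = 4.9e-05). The lysosomal Slc46a3 fell from 25.5 and 34.4 RPM to 1.78 and 0.867 RPM (log2 fold change -3.75, SE 0.34, adjusted p = 8.6e-07).

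The lactate carrier Slc16a1 rose from 10.3 and 11.3 RPM in B cells to 62.2 and 94.5 RPM in Blast (log2 fold change 2.72, SE 0.28, adjusted p = 2.3e-06). The mitochondrial aspartate-glutamate exchanger Slc25a13 rose from 6.67 and 3.61 RPM to 45.2 and 41.6 RPM (log2 fold change 2.90, SE 0.31, adjusted p = 3.3e-06). In the other direction, the purine nucleoside carrier Slc28a2 fell from 178 and 169.6 RPM to 29.7 and 22.97 RPM (log2 fold change -2.69, SE 0.23, adjusted p = 4.5e-07). The choline-like carrier Slc44a2 was at 319 and 297 RPM in B cells and 47.0 and 50.9 RPM in Blast (log2 fold change -2.63, SE 0.24, adjusted p = 8.2e-07). All 3 lipid and choline carriers tested, outside-floor members each, fell, where 18.2% of all genes so chosen fell. The calls of Slc44a1 and Slc27a4 were lost with a pseudocount of 5 and without a filter. Slc26a11, a sulfate carrier, Slc37a4, the glucose-6-phosphate carrier of the endoplasmic reticulum, and Slc36a1, a proton-coupled amino acid carrier, also fell, by 2.82, 2.51 and 2.29 on the log2 scale. Of the lineage-only set, Slc2a6 showed the widest gap in RPM, 2.63 and 8.19 RPM against 130.2 and 152 RPM, followed upward by Slc15a3, a lysosomal peptide carrier, at 10.9 and 17.1 RPM against 111 and 139.6 RPM. The magnesium carrier Slc41a2 went the other way, 18.4 and 25.1 RPM against 2.03 and 0 RPM. Markers of T, NK and myeloid cells summed to 371 and 491 RPM in B cells and to 22.5 and 35.8 RPM in Blast, with none of the 11 at 0 in B cells, and their part in these falls was not tested. The plasmablast markers Igj, Tnfrsf17, Sdc1 and Prdm1 were also called lower in Blast. The part of cells that carry them in the carrier differences was not tested.

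From Blast to PB, Slc39a4, Slc41a1, Slc33a1 and Slc3a2 were among the carriers that rose, and Slc23a2, Slc6a6, Slc37a2 and Slc39a8 among those that fell. Between Blast and prePB, 10 members rose and 11 fell of 123 tested (17.1%, against 10.3% of all genes). Of those at the floor outside the lineage, 8 rose and 8 fell, 14.2% against 8.56%. Between prePB and PB, 2 rose and 17 fell (15.4%, against 13% of all genes), and outside-floor members gave 2 and 14, 14.2% against 11.7%. Over the whole step from Blast to PB, 14 rose and 37 fell, 41.5% against 37.6% of all genes, and outside-floor members gave 12 and 32, 38.9% against 36.4%, a share near the background. The median of all genes was -0.64 on the log2 scale between PB and Blast, -0.39 between PB and prePB and -0.24 between prePB and Blast, so falls sit beside a general shift. With quantile normalization, the counts up and down became 13 and 6 for prePB against Blast, 6 and 7 for PB against prePB, and 25 and 20 for PB against Blast. Median-of-ratios scaling gave 13 and 6, 8 and 7, and 26 and 19. For outside-floor members, quantile normalization gave 11 and 4, 5 and 5, and 22 and 16, and median-of-ratios scaling 11 and 4, 7 and 5, and 23 and 15. All 14 rises from Blast to PB were also called under both scalings.

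Of 22 metal carriers tested, 4 rose and 5 fell from Blast to PB (3 and 5 of 21 outside-floor members). Of all genes at the floor outside the lineage, 5.92% rose and 30.5% fell. The falls were Slc39a8, Slc39a10, Slc31a2, Slc30a4 and Slc39a6. Slc39a4, a zinc importer of the plasma membrane, read 10.2 and 9.82 RPM in Blast, 49.8 and 34.2 RPM in prePB and 53.3 and 66.3 RPM in PB (PB against Blast: log2 fold change 2.46, SE 0.27, adjusted p = 4.2e-06). Slc39a7, which releases zinc from the endoplasmic reticulum, rose from 80.5 and 103 RPM to 204 and 167 RPM (log2 fold change 1.02, SE 0.18, adjusted p = 0.00026). That call was lost without PB replicate 1 and without Blast replicate 1. The magnesium carrier Slc41a1 rose from 22.8 and 15.3 RPM to 77.7 and 61.4 RPM (log2 fold change 1.83, SE 0.25, adjusted p = 3.3e-05). Slc33a1, which carries acetyl-CoA into the endoplasmic reticulum, read 17.3 and 21.1 RPM in Blast, 54.6 and 45.9 RPM in prePB and 91.6 and 88.6 RPM in PB (log2 fold change 2.18, SE 0.23, adjusted p = 3.3e-06 for PB against Blast). The 3 groups did not overlap. The haem carrier Slc48a1 rose from 47.5 and 47.1 RPM in Blast to 107 and 114 RPM in prePB (log2 fold change 1.20, SE 0.19, adjusted p = 0.0005).

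Of 19 amino acid carriers tested, 5 rose and 2 fell from Blast to PB (5 and 1 of 17 outside-floor members). The shares over all genes so chosen were 5.92% up and 30.5% down. The heavy chain Slc3a2 read 179 and 157 RPM in Blast, 333 and 292 RPM in prePB and 502 and 374 RPM in PB (log2 fold change 1.36, SE 0.18, adjusted p = 1.9e-05). Slc7a7, a light chain that binds it and exchanges cationic for neutral amino acids, rose from 7.11 and 6.36 RPM to 31.8 and 30.2 RPM (log2 fold change 2.05, SE 0.28, adjusted p = 3e-05). Slc38a10 rose from 27.9 and 13.9 RPM to 88.5 and 89.3 RPM (log2 fold change 2.12, SE 0.26, adjusted p = 1.1e-05). The glutamate carrier Slc1a1 was listed at 0 in both Blast libraries and held 10.4 and 4.50 RPM in prePB and 5.10 and 2.81 RPM in PB. Slc36a1 rose from 5.11 and 0.867 RPM to 7.66 and 5.64 RPM (log2 fold change 1.17, SE 0.47, adjusted p = 0.045), a call lost with a pseudocount of 5, without a filter, without either PB library or without Blast replicate 2. In the amino acid response list, 1 of 13 genes rose and 4 fell over the same step. Of all genes tested, 6.66% rose and 30.9% fell. The list's median log2 difference was -0.62 against -0.64 over all genes, so the list lay near the background. The choline carrier Slc44a1 was listed at 0 in Blast and rose from 0.916 and 0 RPM in prePB to 7.66 and 12.9 RPM in PB (log2 fold change 2.99, SE 0.57, adjusted p = 0.002 for PB against prePB), and the lysosomal Slc46a3 rose from 1.78 and 0.867 RPM to 13.9 and 11.7 RPM (log2 fold change 2.60, SE 0.34, adjusted p = 2.4e-05).

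Falls that were called under every scaling tried included the ascorbate carrier Slc23a2, 48.5 and 61.5 RPM in Blast, 19.8 and 22.2 RPM in prePB and 4.82 and 5.62 RPM in PB (log2 fold change -3.16, SE 0.26, adjusted p = 2.2e-07 for PB against Blast). The 3 groups did not overlap. The taurine carrier Slc6a6 read 62.4 and 73.1, 26.6 and 40.5 and 11.1 and 10.3 RPM in the same order (log2 fold change -2.55, SE 0.27, adjusted p = 2.5e-06). Slc37a2, a sugar-phosphate carrier, fell from 24.9 and 26.3 RPM to 1.98 and 0.703 RPM (log2 fold change -3.56, SE 0.35, adjusted p = 1.4e-06). Of the carriers that had risen in Blast, some fell again in PB: Slc39a8 to 0.567 and 2.58 RPM (log2 fold change -3.18, SE 0.51, adjusted p = 0.00013) and Slc25a13 to 6.80 and 7.03 RPM (log2 fold change -2.49, SE 0.31, adjusted p = 1.3e-05). The mitochondrial ornithine carrier Slc25a15 fell from 11.2 and 20.51 RPM to 1.13 and 1.87 RPM (log2 fold change -2.71, SE 0.46, adjusted p = 0.00019). Of the lineage-only set, Slc14a1, a urea carrier, stood at 24.1 and 27.2 RPM in Blast and 0.851 and 0 RPM in PB, and Slc2a6 at 130.2 and 152 RPM and 11.6 and 14.1 RPM.

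Of 27 mitochondrial carriers tested, none rose and 12 fell from Blast to PB (0 and 12 of 26 outside-floor members, where 30.5% of all genes so chosen fell), with a median log2 difference of -0.93 against -0.64 over all genes. Slc25a5 was the one with the most reads, 1528 and 1865 RPM in Blast, 1089 and 1394 RPM in prePB and 569 and 519.9 RPM in PB (log2 fold change -1.63, SE 0.18, adjusted p = 3.5e-06). Slc25a4 fell from 416 and 409 RPM to 152 and 123 RPM (log2 fold change -1.58, SE 0.18, adjusted p = 6.8e-06). The calls of Slc25a5, Slc25a4, Slc25a3, Slc25a11, Slc25a20, Slc25a28 and Slc25a38 were lost with quantile normalization or median-of-ratios scaling, so the count of falls in this class moves with the scaling.

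**Figure D2:**
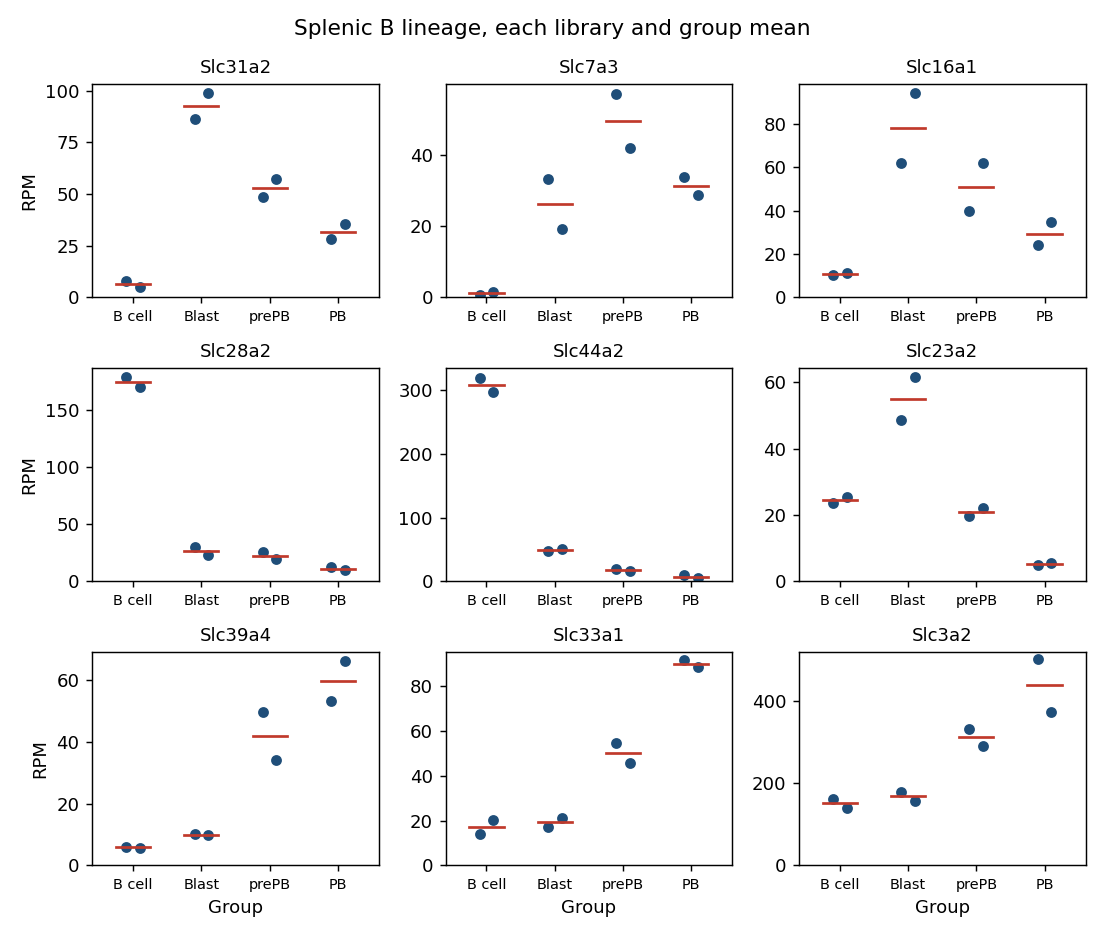
Level in RPM (vertical axes, from 0) of 9 solute carrier genes in the 2 libraries (points) and their mean (red lines) of B cells, Blast, prePB and PB. Slc31a2 and Slc16a1 are highest in Blast, Slc7a3 in prePB, Slc28a2 and Slc44a2 are highest in B cells, and Slc39a4, Slc33a1 and Slc3a2 are highest in PB.

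RefSeq promoters (250 bases before to 50 after a transcript's start, GRCm38.p6) were at hand for 131 of the 172 members and were searched on both strands for 3 motifs. A gene can have several such windows and counted as a match when any of them held the motif. AGNGAAAG is a loosened form of the core of the BLIMP1 sequence, with any base at N, so a match need not be a BLIMP1 site. The matches printed below hold A or G at N. The loosened form was in 9.92% of members (13 of 131) and 9.91% of all 27025 genes with a promoter. It was also in 3 of the 32 members with a promoter that fell from Blast to PB (Slc19a2, Slc25a20 and Slc39a8). None of the 12 that rose held it. CACGTG, the E-box, was in 17.6% of members, 11.9% of the genes that reach 20 RPM in any group, 10 of the 32 that fell and 2 of the 12 that rose. TGATGCAA, which resembles the amino acid response element, was in 3 members (Slc1a4, Slc50a1 and Slc7a7) and in 0.733% of genes at 20 RPM. A match describes letters and not binding. The promoters of Slc39a8 and Slc25a20 are printed because they hold AGNGAAAG in genes lower in PB, Slc16a1 for its E-box, and Slc7a7 for its amino acid response-like match. The falls of Slc25a20 and Slc16a1 were lost with either other scaling. Each is written 5′ to 3′ along the gene, and capitals mark the motif, on either strand (in Slc39a8 both AGNGAAAG and CACGTG). The windows shown for Slc39a8 and Slc7a7 lie at transcript starts inside the gene, downstream of its outermost start.
Slc39a8, chr3:135825407-135825706, + strand: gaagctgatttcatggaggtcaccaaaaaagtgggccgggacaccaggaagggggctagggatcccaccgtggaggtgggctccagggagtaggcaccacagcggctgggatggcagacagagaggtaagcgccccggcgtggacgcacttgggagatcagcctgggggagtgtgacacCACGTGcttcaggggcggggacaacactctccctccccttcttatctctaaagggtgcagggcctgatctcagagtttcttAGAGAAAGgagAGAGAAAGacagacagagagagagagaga
Slc25a20, chr9:108661886-108662185, + strand: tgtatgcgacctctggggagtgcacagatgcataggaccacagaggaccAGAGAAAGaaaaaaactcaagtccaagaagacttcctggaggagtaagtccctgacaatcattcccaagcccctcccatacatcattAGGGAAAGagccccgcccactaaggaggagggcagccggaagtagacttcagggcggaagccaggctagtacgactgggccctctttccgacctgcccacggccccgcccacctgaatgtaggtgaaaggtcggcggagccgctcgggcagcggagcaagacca
Slc16a1, chr3:104638414-104638713, + strand: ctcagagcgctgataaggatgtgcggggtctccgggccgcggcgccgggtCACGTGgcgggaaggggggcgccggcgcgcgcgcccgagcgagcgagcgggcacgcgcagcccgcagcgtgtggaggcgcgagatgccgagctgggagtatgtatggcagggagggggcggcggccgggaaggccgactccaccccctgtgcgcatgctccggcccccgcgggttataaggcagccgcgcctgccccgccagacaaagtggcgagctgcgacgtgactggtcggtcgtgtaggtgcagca
Slc7a7, chr14:54417895-54418194, - strand: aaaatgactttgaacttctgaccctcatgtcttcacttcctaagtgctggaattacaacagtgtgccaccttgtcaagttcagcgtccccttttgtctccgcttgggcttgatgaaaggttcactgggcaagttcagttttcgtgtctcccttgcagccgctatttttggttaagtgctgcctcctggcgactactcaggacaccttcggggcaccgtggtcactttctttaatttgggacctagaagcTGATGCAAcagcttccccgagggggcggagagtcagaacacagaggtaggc

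In the intestine, the carriers higher at P3 than in the reporter-positive cells of E16.5 included Slc27a2, Slc29a1 and Slc1a5, and those lower included Slc26a6, Slc17a5 and Slc43a2. Between E16.5 and P3, 18 of 144 members tested rose and 29 fell, 32.6% where 20.8% of all 10481 genes were called. Of 113 members at the floor outside the lineage, 14 rose and 16 fell, 26.5% against 16.2%. With quantile normalization the outside-floor members gave 10 and 18, and with median-of-ratios scaling 11 and 18; the median of all genes was 0.11 on the log2 scale. Age and gate cannot be told apart in this comparison. Markers of enteroendocrine cells summed to 98.5 and 63.6 RPM at E16.5 and 7563 and 5075 RPM at P3, and goblet and Paneth markers to 318 and 266 RPM against 3530 and 3129 RPM, with no marker of either list at 0 at either age. Their part in the carrier differences was not tested.

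Of 21 amino acid carriers tested, 3 rose and 8 fell (3 and 5 of 18 outside-floor members). Of all genes at the floor outside the lineage, 10.4% rose and 5.79% fell from E16.5 to P3. The glutamine and neutral amino acid exchanger Slc1a5 rose from 62.7 and 50.0 RPM to 143 and 170.3 RPM (log2 fold change 1.46, SE 0.20, adjusted p = 3.9e-06). Slc43a2, an efflux carrier of branched and aromatic amino acids, fell from 97.0 and 65.8 RPM to 13.5 and 15.2 RPM (log2 fold change -2.40, SE 0.26, adjusted p = 1.2e-07). Of the intestine-only set, the heavy chain Slc3a1 stood at 63.9 and 63.0 RPM and 10.8 and 11.1 RPM and its partner Slc7a9 at 344 and 324 RPM and 113 and 127 RPM. The aromatic amino acid carrier Slc16a10 stood at 163 and 159.9 RPM and 43.5 and 51.2 RPM. Among genes whose proteins partner with carriers, the scaffold Pdzk1 fell from 163 and 209.6 RPM to 13.0 and 14.5 RPM (log2 fold change -3.66, SE 0.23, adjusted p = 6.6e-12).

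Of 15 ion carriers tested, 3 rose and 2 fell (1 and 2 of 12 outside-floor members, where 10.4% of all genes so chosen rose and 5.79% fell). Slc26a6, an exchanger of chloride for oxalate and bicarbonate, fell from 70.4 and 55.9 RPM to 8.97 and 3.70 RPM (log2 fold change -3.22, SE 0.32, adjusted p = 2.7e-08), and the sulfate carrier Slc26a2 from 48.1 and 56.5 RPM to 11.2 and 10.8 RPM (log2 fold change -2.15, SE 0.29, adjusted p = 2.7e-06). Slc17a5, sialin, which exports sialic acid from lysosomes, fell from 179 and 203 RPM to 21.1 and 34.7 RPM (log2 fold change -2.77, SE 0.22, adjusted p = 9.5e-10). Slc25a4 fell from 207 and 265 RPM to 65.5 and 69.7 RPM (log2 fold change -1.78, SE 0.21, adjusted p = 4.2e-07), and Slc37a2 from 34.2 and 17.6 RPM to 1.79 and 0.337 RPM (log2 fold change -3.73, SE 0.49, adjusted p = 2e-06). The groups of each of these genes stood apart. Intestine-only members with lower values at P3 included the ascorbate carrier Slc23a1 (23.2 and 20.53 RPM against 0.448 and 0.721 RPM), the organic cation exporter Slc47a1 (33.5 and 34.6 RPM against 2.69 and 2.36 RPM), the inositol carrier Slc5a11 (83.5 and 72.6 RPM against 8.07 and 9.42 RPM) and the phosphate carrier Slc34a3 (34.6 and 23.8 RPM against 2.69 and 2.69 RPM).

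Of 6 lipid and choline carriers tested, 2 rose and 2 fell (2 and 1 of 4 outside-floor members). The shares over all genes so chosen were 10.4% up and 5.79% down. Higher at P3 were Slc27a2, a fatty acid carrier with acyl-CoA synthetase activity, from 11.2 and 5.56 RPM to 78.0 and 75.4 RPM (log2 fold change 3.12, SE 0.26, adjusted p = 1.5e-09), and the equilibrative nucleoside carrier Slc29a1, from 16.54 and 13.9 RPM to 76.2 and 76.1 RPM (log2 fold change 2.25, SE 0.22, adjusted p = 1.7e-08). The mitochondrial ATP-magnesium carrier Slc25a25 rose from 13.9 and 12.4 RPM to 70.8 and 46.4 RPM (log2 fold change 2.05, SE 0.25, adjusted p = 5.3e-07). The magnesium carrier Slc41a1 rose from 4.62 and 4.94 RPM to 18.8 and 25.6 RPM (log2 fold change 1.99, SE 0.34, adjusted p = 5.3e-05), the only called one of 22 metal carriers tested and of the 20 at the floor outside the lineage. The sugar efflux carrier Slc50a1 rose from 25.8 and 22.5 RPM to 67.3 and 60.6 RPM (log2 fold change 1.37, SE 0.24, adjusted p = 7.3e-05). Intestine-only members with higher values included Slc12a8 (3.08 and 4.94 RPM against 72.6 and 65.6 RPM), the sodium-proton exchanger Slc9a2 (1.15 and 0.926 RPM against 21.97 and 14.5 RPM) and Slc16a12, a monocarboxylate carrier family member (12.7 and 16.98 RPM against 122 and 129.6 RPM).

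Between P3 and P14, both sorted on EPCAM, 3 members rose and 8 fell of 144 (7.64%, against 4.4% of all genes), and outside-floor members gave 3 and 5 of 113, 7.08% against 2.67%. With median-of-ratios scaling the counts up and down were 4 and 5 for all members and 3 and 2 for outside-floor members, and with quantile normalization the latter were 3 and 4. Slc7a7, the basolateral light chain of cationic amino acid efflux, fell from 134 and 114 RPM to 58.0 and 58.1 RPM (log2 fold change -1.08, SE 0.17, adjusted p = 0.00015), and the mitochondrial carnitine-acylcarnitine carrier Slc25a20 from 156 and 161 RPM to 78.4 and 71.4 RPM (log2 fold change -1.08, SE 0.16, adjusted p = 8.2e-05). Both calls were lost with median-of-ratios scaling, and that of Slc7a7 also without P3 replicate 1. The glutamine carrier Slc38a1 fell from 125 and 123 RPM to 58.0 and 63.6 RPM (log2 fold change -1.02, SE 0.16, adjusted p = 0.00019), a call lost with both other scalings and without P14 replicate 1. Slc39a8 fell from 43.5 and 43.4 RPM to 21.97 and 14.8 RPM (log2 fold change -1.22, SE 0.23, adjusted p = 0.0011) and lost its call without a filter or P14 replicate 2. The glutamate carrier Slc1a1 rose from 3.59 and 4.38 RPM to 21.7 and 26.2 RPM (log2 fold change 2.32, SE 0.51, adjusted p = 0.0041), but this call was lost without a filter on low values and without any 1 of the 4 libraries. Slc26a6, low at P3, rose to 16.8 and 21.5 RPM (log2 fold change 1.55, SE 0.32, adjusted p = 0.0024) and lost its call without a filter, P14 replicate 2 or P3 replicate 2. Of the intestine-only set, the phosphate carrier Slc34a2 read 97.3 and 112 RPM at P3 and 34.8 and 41.4 RPM at P14. Without P14 replicate 1, P3 replicate 1 or P3 replicate 2, the members called numbered 6, 7 and 6 in place of 11. Without P14 replicate 2, none rose and 11 fell, and outside-floor members gave 0 and 7. Enteroendocrine markers summed to 1880 and 3379 RPM at P14, and the 2 P14 libraries also differed in erythroid markers (61.5 and 1.90 RPM over 5 genes). The part of either in these differences was not tested.

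**Figure D3:**
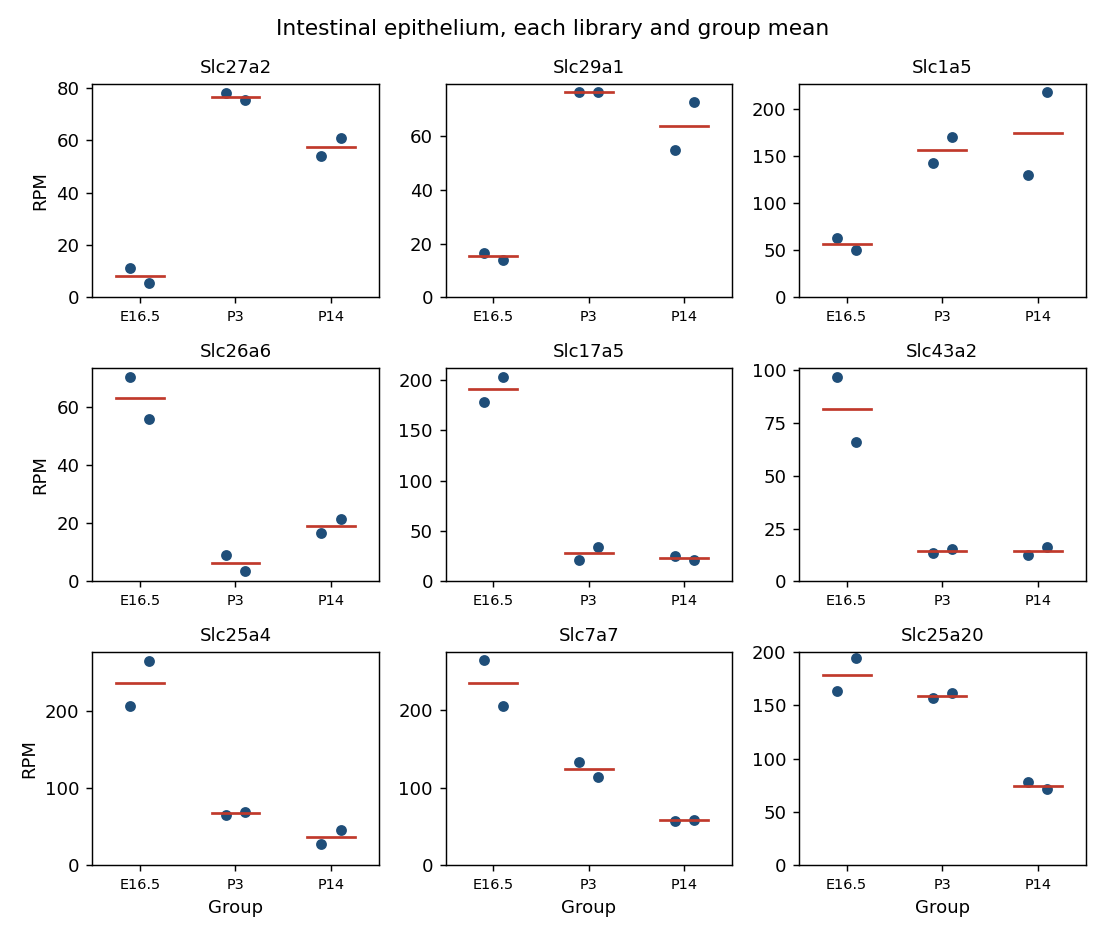
Level in RPM (vertical axes, from 0) of 9 solute carrier genes in the 2 libraries (points) and their mean (red lines) of intestinal epithelium, by age (E16.5, P3, P14). Slc27a2, Slc29a1 and Slc1a5 are lowest at E16.5, Slc26a6, Slc17a5, Slc43a2 and Slc25a4 are highest there, and Slc7a7 and Slc25a20 are lowest at P14.

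In the retina, Slc1a1, Slc25a33 and Slc27a2 were among the carriers higher in P4 CD73- cells than at P0, and Slc16a1, Slc16a6 and Slc6a6 among those higher at P10 than at P6. Between P0 GFP+ and P4 GFP+ CD73- cells, 19 of 134 members tested rose and 4 fell, 17.2% where 11% of all 11704 genes were called. The labels name a CD73 gate at P4 and none at P0, so age and gate cannot be told apart here either. Of 107 at the floor outside the lineage, 10 rose and 4 fell, 13.1% against 8.27%. The outside-floor count was 9 without P4 CD73- replicate 1, in place of 14. Slc1a1 rose from 6.11 and 3.73 RPM to 27.7 and 25.5 RPM (log2 fold change 2.25, SE 0.24, adjusted p = 1e-05). The mitochondrial pyrimidine nucleotide carrier Slc25a33 rose from 83.5 and 90.1 RPM to 212 and 196 RPM (log2 fold change 1.22, SE 0.13, adjusted p = 9.2e-06), and the lactate exporter Slc16a3 from 21.9 and 19.8 RPM to 46.3 and 54.9 RPM (log2 fold change 1.23, SE 0.24, adjusted p = 0.0017). Slc27a2 rose from 5.69 and 5.36 RPM to 18.4 and 20.7 RPM (log2 fold change 1.65, SE 0.28, adjusted p = 0.00063). The zinc carrier family member Slc39a11 fell from 49.1 and 53.8 RPM to 10.9 and 11.4 RPM (log2 fold change -2.11, SE 0.33, adjusted p = 0.00029), and Slc7a1, a carrier of arginine, from 61.4 and 81.6 RPM to 23.3 and 19.7 RPM (log2 fold change -1.68, SE 0.25, adjusted p = 0.00023). The other 2 falls, Slc37a1 and Slc12a7, were lost without P4 CD73- replicate 1 and without either P0 library.

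Retina-only members with higher values at P4 included Slc6a9, Slc1a7, Slc38a3 and Slc15a2. The glycine carrier Slc6a9 stood at 37.3 and 38.9 RPM at P0 and 142 and 141 RPM at P4, Slc1a7 at 29.3 and 20.3 RPM and 78.3 and 55.3 RPM, and Slc38a3 at 64.7 and 64.5 RPM and 151 and 144 RPM. The peptide carrier Slc15a2 read 55.9 and 51.004 RPM at P0 and 225 and 121 RPM at P4. Markers of retinal progenitors and the cell cycle summed to 2773 and 2504 RPM at P0 and to 388 and 725 RPM in P4 CD73- cells. Müller glia markers summed to 733 and 809 RPM at P0 and 789 and 898 RPM at P4. The sum hides opposite changes: of 6 tested, Apoe, Clu and Rlbp1 were called higher at P4 and Vim lower. The part of these cells in the carrier differences was not tested.

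Within P4, CD73+ cells differed from CD73- cells in 11 members, 10 higher and 1 lower (8.21%, against 5.86% of all genes), and outside-floor members gave 8 and 1, 8.41% against 3.67%. The labels name a GFP gate for the CD73- cells alone, so the parts of CD73 and of the reporter gate cannot be told apart. Without P4 CD73- replicate 1, 7 members were called. Slc26a11 was at 4.64 and 3.94 RPM in CD73- and 22.9 and 20.1 RPM in CD73+ cells (log2 fold change 2.09, SE 0.27, adjusted p = 0.00011). Slc1a1 was at 100.4 and 92.3 RPM in CD73+ cells (log2 fold change 1.82, SE 0.24, adjusted p = 0.00012), the highest of the 13 groups. Slc31a2 rose from 13.8 and 16.04 RPM to 41.9 and 39.04 RPM (log2 fold change 1.39, SE 0.22, adjusted p = 0.00065), and Slc27a2 from 18.4 and 20.7 RPM to 46.5 and 58.7 RPM (log2 fold change 1.38, SE 0.28, adjusted p = 0.0041), a call lost without CD73+ replicate 2. The 1 lower member was Slc43a2, 31.3 and 35.7 RPM against 17.7 and 13.0 RPM (log2 fold change -1.09, SE 0.27, adjusted p = 0.014), lost in 3 of the 4 fits without 1 library. Of the retina-only set, Slc12a5 stood at 33.2 and 31.9 RPM and 105 and 111 RPM, and Slc44a1 at 4.11 and 5.44 RPM and 21.7 and 18.3 RPM. Amacrine, horizontal and ganglion cell markers summed to 579 and 640 RPM in CD73- cells and 1052 and 1144 RPM in CD73+ cells. Of the 10 listed, 5 were tested and 0 were called, with a median log2 difference of 0.49. T, NK and myeloid markers summed to 80.6 and 149 RPM in CD73- cells and 31.9 and 26.0 RPM in CD73+ cells, and 5 erythroid markers to 27.4 and 41.1 RPM against 18.5 and 0.926 RPM. The part of these cells in the differences was not tested.

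Between P4 and P6, both CD73+, 3 members rose and 1 fell (2.99%, against 2.7% of all genes), and 1 outside-floor member rose of 107, 0.935% against 1.66%. That was Slc7a8, a large neutral amino acid exchanger, 24.7 and 13.0 RPM at P4 and 58.6 and 65.9 RPM at P6 (log2 fold change 1.73, SE 0.33, adjusted p = 0.0074), a call lost without a filter on low values, and without P6 replicate 1, P6 replicate 2 or P4 CD73+ replicate 2. The bicarbonate carrier Slc4a10, a retina-only member, was listed at 0 in both P4 CD73+ libraries and read 6.95 and 6.19 RPM at P6 and 34.03 and 35.7 RPM at P10. Slc15a2, also retina-only, read 154 and 106 RPM at P4 and 27.4 and 36.4 RPM at P6.

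The last step changed more. Between P6 and P10, 11 members rose and 11 fell (16.4%, against 11% of all genes), and outside-floor members gave 7 and 8, 14% against 8.13%. The outside-floor count was 8 without P10 replicate 2, in place of 15. With median-of-ratios scaling 14 members rose and 9 fell. Over the longer step from P4 CD73+ to P10, 21 rose and 17 fell (28.4%, against 17.2% of all genes), and outside-floor members gave 15 and 12, 25.2% against 13.2%, or 18 in place of 27 without P10 replicate 2. The median of all genes was -0.13 in both. Slc16a1 read 15.7 and 15.3 RPM at P6 and 84.7 and 104 RPM at P10 (log2 fold change 2.52, SE 0.26, adjusted p = 9.1e-06), and the related Slc16a6 9.15 and 8.51 RPM and 45.97 and 72.0 RPM (log2 fold change 2.58, SE 0.48, adjusted p = 0.0013). Slc6a6, the taurine carrier on which photoreceptors depend, rose from 93.7 and 81.8 RPM to 391.9 and 558 RPM (log2 fold change 2.40, SE 0.19, adjusted p = 5.8e-07), the highest level of this gene in the 13 groups. Slc4a7, a sodium bicarbonate cotransporter, rose from 138 and 179 RPM to 295 and 379.6 RPM (log2 fold change 1.09, SE 0.17, adjusted p = 0.00032), a call lost without P10 replicate 2 or P6 replicate 1. Slc31a2 rose from 47.7 and 60.5 RPM to 117 and 110.5 RPM (log2 fold change 1.07, SE 0.22, adjusted p = 0.0033), lost without P6 replicate 1.

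From P4 CD73+ to P10, 7 of 19 ion carriers tested rose and 1 fell (3 and 1 of 12 outside-floor members). Of 27 mitochondrial carriers, 5 rose and 2 fell (4 and 2 of 24). Over all genes at the floor outside the lineage, 3.23% rose and 10% fell. Slc25a12, the aspartate-glutamate exchanger of neurons, rose from 49.3 and 43.4 RPM to 122 and 119 RPM (log2 fold change 1.37, SE 0.21, adjusted p = 0.00015), Slc25a37 from 22.2 and 19.6 RPM to 70.6 and 58.2 RPM (log2 fold change 1.58, SE 0.24, adjusted p = 0.00014) and Slc25a25 from 28.5 and 29.9 RPM to 88.6 and 92.5 RPM (log2 fold change 1.60, SE 0.25, adjusted p = 0.00014). Slc2a3 rose from 3.77 and 7.14 RPM to 24.2 and 18.8 RPM (log2 fold change 1.84, SE 0.41, adjusted p = 0.0029), and Slc7a8 reached 76.8 and 79.2 RPM (log2 fold change 2.06, SE 0.33, adjusted p = 0.00022). These 5 calls held without each of the 4 libraries. Of the retina-only set, the mitochondrial glutamate carrier Slc25a22 stood at 38.2 and 48.4 RPM and 146 and 146 RPM, Slc12a5 at 105 and 111 RPM and 341 and 329.5 RPM, and the sodium-proton exchanger Slc9a5 at 5.66 and 10.6 RPM and 50.4 and 43.7 RPM.

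Lower at P10 was Slc27a2, 39.5 and 44.1 RPM at P6 and 9.09 and 5.38 RPM at P10 (log2 fold change -2.41, SE 0.28, adjusted p = 2.4e-05), so that this gene rose to P4 CD73+ and fell back. Slc30a10, a manganese exporter, fell from 18.3 and 24.4 RPM to 4.16 and 4.39 RPM (log2 fold change -2.07, SE 0.30, adjusted p = 0.00018), and Slc29a1 from 15.4 and 15.2 RPM to 3.38 and 4.37 RPM (log2 fold change -1.75, SE 0.39, adjusted p = 0.0052), a call lost without a filter on low values. Slc1a5 fell from 49.5 and 45.8 RPM in P4 CD73+ cells to 22.3 and 10.8 RPM (log2 fold change -1.55, SE 0.26, adjusted p = 0.00034). Slc25a39, a mitochondrial glutathione carrier, fell from 84.8 and 83.8 RPM to 32.5 and 38.02 RPM (log2 fold change -1.24, SE 0.17, adjusted p = 5e-05), and Slc38a10 from 132 and 98.4 RPM to 47.8 and 37.3 RPM (log2 fold change -1.41, SE 0.19, adjusted p = 3.4e-05). A retina-only member with lower values was the noradrenaline carrier Slc6a2 (84.2 and 69.0 RPM at P6, 10.6 and 13.7 RPM at P10). Other cell markers moved over the same days: bipolar markers summed to 359 and 317 RPM in P4 CD73+ cells, 1184 and 1253 RPM at P6 and 1662 and 1401 RPM at P10, Müller glia markers to 822 and 771 RPM at P6 and 341 and 430 RPM at P10, and progenitor and cell cycle markers to 322 and 330 RPM at P6 and 124 and 114 RPM at P10. No Müller glia, bipolar or progenitor marker was at 0 at P6 or P10. Erythroid markers summed to 18.5 and 0.926 RPM in P4 CD73+ cells and 25.5 and 57.7 RPM at P10, with Hba-a1 and Hba-a2 called higher. Of the amacrine, horizontal and ganglion markers, Tfap2a, Tfap2b and Gad2 were called lower at P10 than in P4 CD73+ cells and Nefl higher. The part of any of these cells in the carrier differences, that of Slc25a37 included, was not tested.

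**Figure D4:**
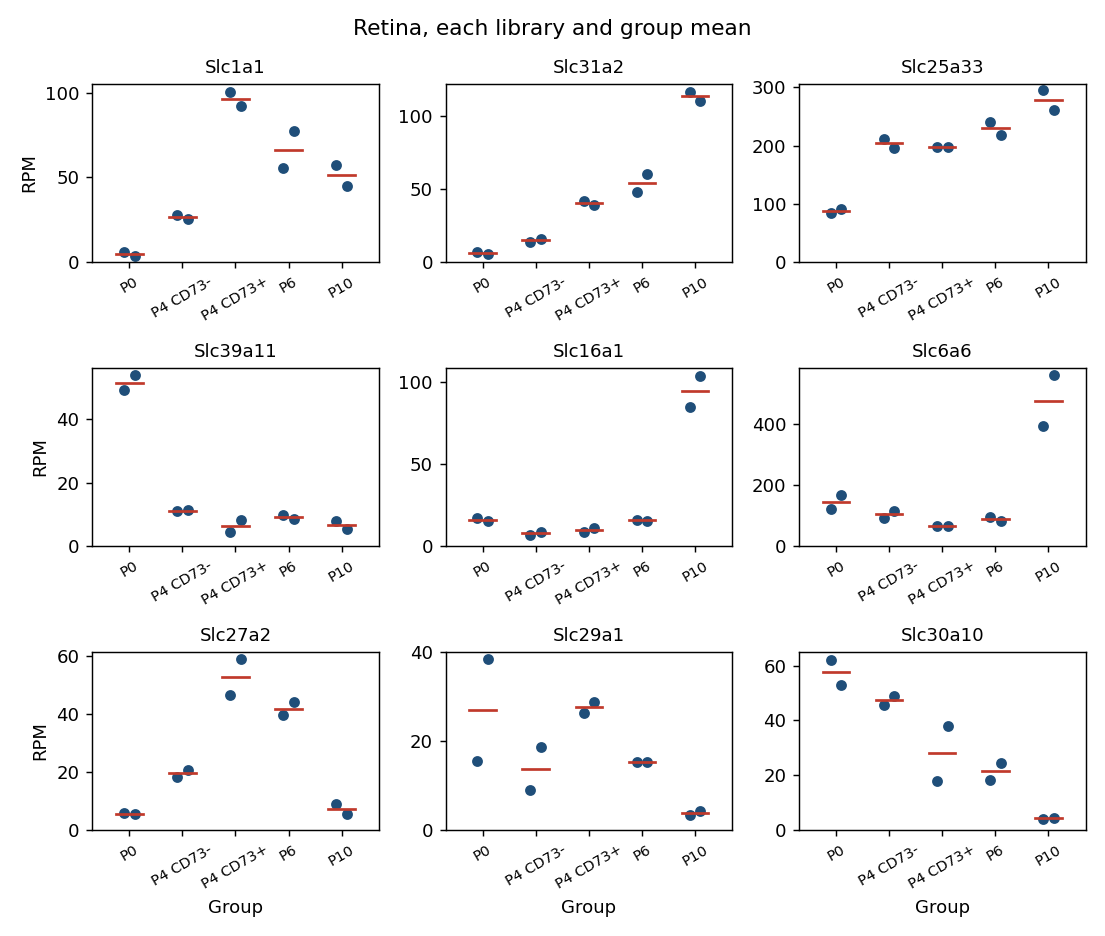
Level in RPM (vertical axes, from 0) of 9 solute carrier genes in the 2 libraries (points) and their mean (red lines) of retinal cells at P0 (GFP+), P4 (GFP+ CD73- and CD73+), P6 and P10 (CD73+). Slc16a1 and Slc6a6 are highest at P10, Slc1a1 and Slc27a2 in P4 CD73+ cells, and Slc39a11 and Slc30a10 at P0.

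Across the comparisons, the share of outside-floor members called was above the share of all genes chosen the same way in 10 of 11 and below it between P4 and P6, as the plot of shares by comparison shows. These comparisons share groups, and the difference of shares was not tested.

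**Figure D5:**
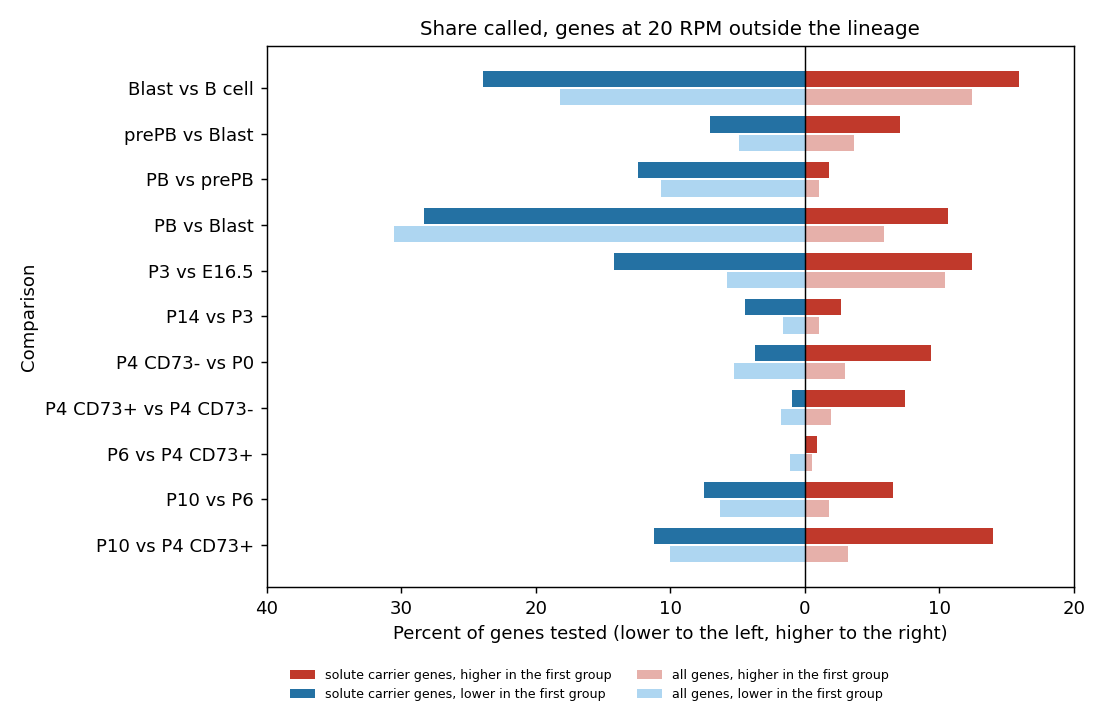
Percent of solute carrier genes (dark bars) and of all genes (pale bars) called in each comparison, over genes tested that reach 20 RPM in a group outside the lineage compared. Bars to the right are genes higher in the first group named and bars to the left genes lower in it. The members' bars are longest for Blast against B cells and PB against Blast, where 45 and 44 members were called.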

How the data were processed

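The deposited table gives RPM signal values per gene for 26 libraries of 3' reads. The submitters' processing notes name TopHat 1.4.1, Cufflinks 2.2.0, Bowtie 1.0.1, cutadapt 1.11 and the build mm10, without their roles. The sources used here do not give the handling of reads that match several genes. The commonest low value set 1 read at 0.166 to 0.583 RPM, and 82.9% to 91.3% of values of up to 20 reads lay within 0.02 of a whole number of reads, so the deposited values were not treated as counts. Of 26310 lines, 1164 were not used: 92 were spike-in controls and 1072 lacked a numeric value in at least 1 library.

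Within each lineage, log2(RPM + 1) was fitted with limma 3.58.1 (R 4.3.3; an intensity-dependent prior, no block) over the groups of that lineage, for genes that had 5 RPM or more in 2 or more libraries. Calls needed a Benjamini-Hochberg adjusted p under 0.05 over all genes tested and a log2 fold change of 1 or more in size. The procedure was tested on simulated data in which only genes with a lineage mean of 20 RPM or more were changed. That test does not cover calls of lower genes, and its outcome is not given here. The rule for named genes was up to 10 members per direction and comparison with the largest change, the 5 with the most reads per group, the 3 with the highest group mean per transport class, and members next to the floor. Outside it, Slc19a1, Slc36a1, Slc39a7, Slc50a1, Slc25a12, Slc25a25, Slc25a33, Slc25a37, Slc25a39, Slc31a2 at P10 and some members given by level alone were chosen after their values were seen. Members, gene lists and motifs were chosen with earlier results of these data known. The alternatives were pseudocounts of 0.5 and 5, no filter or 20 RPM, 2 other scalings, a replicate block, 1 fit of all libraries, and leaving out each library. Tables and figures used Python 3.11.15, NumPy 2.4.6, pandas 2.3.3 and matplotlib 3.10.9. Some members and list genes are not reported here by name.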

Additional observations from a re-analysis of the deposited data

How the results depend on the processing

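With 2 libraries per group, each left-out library leaves 1 in its group, which is then assumed to vary like the others. Low genes limit the calls: 20 RPM is 34.3 to 121 reads. Of the 299 calls of members over the 11 comparisons none reversed, and 77 were lost with a pseudocount of 5, 59 without a filter, 51 with quantile normalization, 51 with median-of-ratios scaling, 13 with 1 fit of all libraries, 4 with a pseudocount of 0.5 and 0 with the block; with a filter of 20 RPM 0 of 250 were lost, and without 1 library 235 of 1174. The cause was not tested.

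Counts of members called that moved by over 1.5 times were as follows, with outside-floor members second. For PB against prePB, 19 and 16 became 11 and 9 with a pseudocount of 5 and 11 and 10 without a filter, and the second became 10 with a filter of 20 RPM and 10 with quantile normalization. For P14 against P3, 11 and 8 became 7 and 5 with a pseudocount of 5 and 5 and 4 without a filter, and the second became 5 with median-of-ratios scaling. For P4 CD73- against P0, the outside-floor count of 14 became 8 with a pseudocount of 5 and 8 without a filter. For P4 CD73+ against CD73-, 11 and 9 became 6 and 4 with a pseudocount of 5. For P6 against P4, 4 became 2 without a filter, and 1 became 3 in 1 fit of all libraries.

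Leaving out 1 library gave 44 to 49 members for Blast against B cells (outside-floor 36 to 42), 18 to 23 for prePB against Blast (13 to 19), 15 to 19 for PB against prePB (13 to 16), 45 to 53 for PB against Blast (39 to 46) and 41 to 46 for P3 against E16.5 (26 to 29). It gave 6 to 11 for P14 against P3 (5 to 7), 18 to 27 for P4 CD73- against P0 (9 to 15), 7 to 11 for P4 CD73+ against CD73- (4 to 8), 2 to 3 for P6 against P4 (0 to 1), 15 to 22 for P10 against P6 (8 to 15) and 27 to 40 for P10 against P4 (18 to 27). For P6 against P4, the lowest counts came without P6 replicate 1, P6 replicate 2 or P4 CD73+ replicate 2.

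The labels do not say that libraries with the same replicate number share an animal or culture. Deviations of same-numbered libraries correlated at -0.04 to 0.24. The highest values were 0.24 for P4 CD73- with P4 CD73+ and 0.16 for Blast with prePB. A shared animal or culture in these pairs was not tested. With the replicate number as a block, PB against prePB gave 22 members, P14 against P3 12 and P4 CD73- against P0 24, and the other counts over all members were as without it.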

Other observations

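Of the 172 genes, 4 pairs lay within 100 kb of each other in RefSeq's GRCm38.p6 annotation, and they differed in how alike their levels were. Slc31a2 and Slc31a1, both copper carriers, are on chromosome 4 (62280393 to 62298412 and 62360583 to 62391769). Slc31a2 was highest in P10 retina, 117 and 110.5 RPM, where Slc31a1 read 87.5 and 77.4 RPM, and Slc31a1 was highest in E16.5 intestine, 303 and 276 RPM, where Slc31a2 read 12.7 and 12.5 RPM. Slc38a1 and Slc38a2, glutamine carriers on chromosome 15 with a gap of 43954 bases, both had their highest mean in P4 CD73- retina, 193 and 143 RPM and 307 and 304 RPM. Slc6a19 and the potassium-chloride cotransporter Slc12a7, on chromosome 13 with a gap of 32272 bases, were both highest in E16.5 intestine, at 130.04 and 113 RPM and 71.2 and 98.2 RPM. Slc25a15 and the phosphate carrier Slc20a2, on chromosome 8 with a gap of 78079 bases, were highest in different lineages: E16.5 intestine with 127 and 124 RPM and P0 retina with 52.04 and 61.0 RPM. These are levels, given with no test.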
